A study of Homo sapiens with 6 samples.

Results

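Mitosis and G2/M genes, the genes whose products carry a cell from the end of DNA replication through chromosome segregation to cytokinesis, were followed in RNA sequencing of HK-2 cells. A gene was taken when its symbol was in a given list of 46 and it had at least 10 counts in 3 or more of the 6 libraries. All 46 met this rule, out of 62754 genes listed and 19874 tested, and their counts ran from 241 to 48261 per library. The list was drawn up with earlier results of these data known, so counts over it are a description and carry no test of their own. HK-2 is a human proximal tubule epithelial line immortalised with papillomavirus oncogenes, whose proteins act on the RB family among others. Every culture had received Cisplatin. The CP+siNC group was transfected with a negative control siRNA, and the CP+siNAT10 group with siRNA against NAT10, which encodes an RNA acetyltransferase. Each group had 3 libraries and no library without Cisplatin was analysed here, so the comparison is of NAT10 silencing within Cisplatin treatment. Total counts were 19321665, 21602988 and 19464027 in CP+siNC and 20793709, 21531774 and 25192736 in CP+siNAT10. The labels number the cells within a group but do not say that they were separate cultures, and p-values then measure only the spread between these libraries, which may be technical.

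Entry into mitosis is driven by CDK1 bound to cyclin A or B, which CDC25 phosphatases activate and which PLK1 and the Aurora kinases accompany. Condensed chromosomes attach to the spindle through kinetochores, a checkpoint holds back the anaphase-promoting complex (APC/C) until attachment is complete, and the cell then divides through the central spindle. Many of these genes are transcribed in late S phase and G2, when FOXM1 and B-MYB act with the MuvB complex, and are repressed in resting cells by the DREAM complex, which binds the cell cycle homology region (CHR) of their promoters. Tubule cells seldom divide in a healthy kidney, and cycle or stop in G2/M after injury.

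NAT10 itself (ENSG00000135372, chromosome 11, 34105617 to 34147670, GRCh38) was measured at 75.8, 71.4 and 73.2 CPM in CP+siNC. It was at 41.3, 40.5 and 42.4 CPM in CP+siNAT10. CPM are counts scaled to the TMM-adjusted library size. The groups did not overlap, and NAT10 stood at 56.4% of its control level (log2 fold change -0.82, SE 0.0426, edgeR adjusted p = 2.79e-15).

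Markers of the proximal tubule were mostly missing. Of 10 such genes, 7 had too few counts to be tested, among them the receptors LRP2 and CUBN, the transporters SLC34A1, SLC22A6 and SLC22A8, and the transcription factor HNF4A, all below 0.5 CPM in every library. GGT1 was the most abundant of the 10, at 33.0 to 33.4 CPM in CP+siNC and 25.3 to 29.1 CPM in CP+siNAT10, and it was called lower. The glucose transporter SLC5A2 went the other way, at 8.31 to 9.88 CPM in CP+siNC and at 11.5 to 11.7 CPM in CP+siNAT10 (log2 fold change 0.31, edgeR adjusted p = 0.00362). The 10 genes summed to between 43.0 and 44.7 CPM in CP+siNC and between 38.9 and 42.0 CPM in CP+siNAT10, and what part this has in other results was not tested. Of 8 epithelial and tubule lineage genes, 7 were tested, with keratin KRT8 between 1430.4 and 1471 CPM, whereas the cadherin CDH1 was at or near 0. Of these 7, PAX8 (log2 fold change 0.59), CDH6 (0.47) and EPCAM (0.31) were called higher and KRT18 (-0.36) lower, all without overlap between groups. Over all tested genes, 21.8% were called higher and 22.3% lower, and 51.4% had groups that did not overlap. The markers given here were named after their values were seen. Markers of other kidney cells summed to between 0.935 and 1.97 CPM per library over 7 genes. The most abundant of these 7 in any library was PTPRC, the leukocyte gene, at 0.363 to 0.467 CPM in CP+siNC and 0.475 to 1.33 CPM in CP+siNAT10, on 7 to 29 counts. It was called higher with edgeR (log2 fold change 0.96, adjusted p = 0.0411) and not with DESeq2 (adjusted p = 0.139) or in 4 of the 6 fits that left out 1 library, and what part it has in other results was not tested. The rest of the 7 had too few counts to be tested. PDGFRB was lower without overlap, at 0.312 to 0.374 CPM in CP+siNC and 0.0915 to 0.190 CPM in CP+siNAT10. With overlapping groups, the mean of VWF was lower in CP+siNAT10, and those of UMOD, AQP2, NPHS1 and PECAM1 were higher.

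Most mitosis and G2/M genes were lower in CP+siNAT10. At an edgeR adjusted p under 0.05, 34 of the 46 were lower, where 22.3% of all tested genes were, and 4 were higher, where 21.8% of all tested genes were. The other 8 were not called. Their median log2 fold change was -0.23, beside 0.0070 over all tested genes, and the 46 values ran from -0.57 for ECT2 to 0.23 for CDC25B. For 36 of the 46, every CP+siNAT10 library was below every CP+siNC library, where 25.7% of all tested genes showed this. The falls were small: 2 genes, ECT2 and PTTG1, also had a log2 fold change below -0.5, where 6.95% of all tested genes did. Bulk RNA cannot tell apart a smaller share of cells in G2 and M phase from less RNA of these genes in each such cell.

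**Figure D1:**
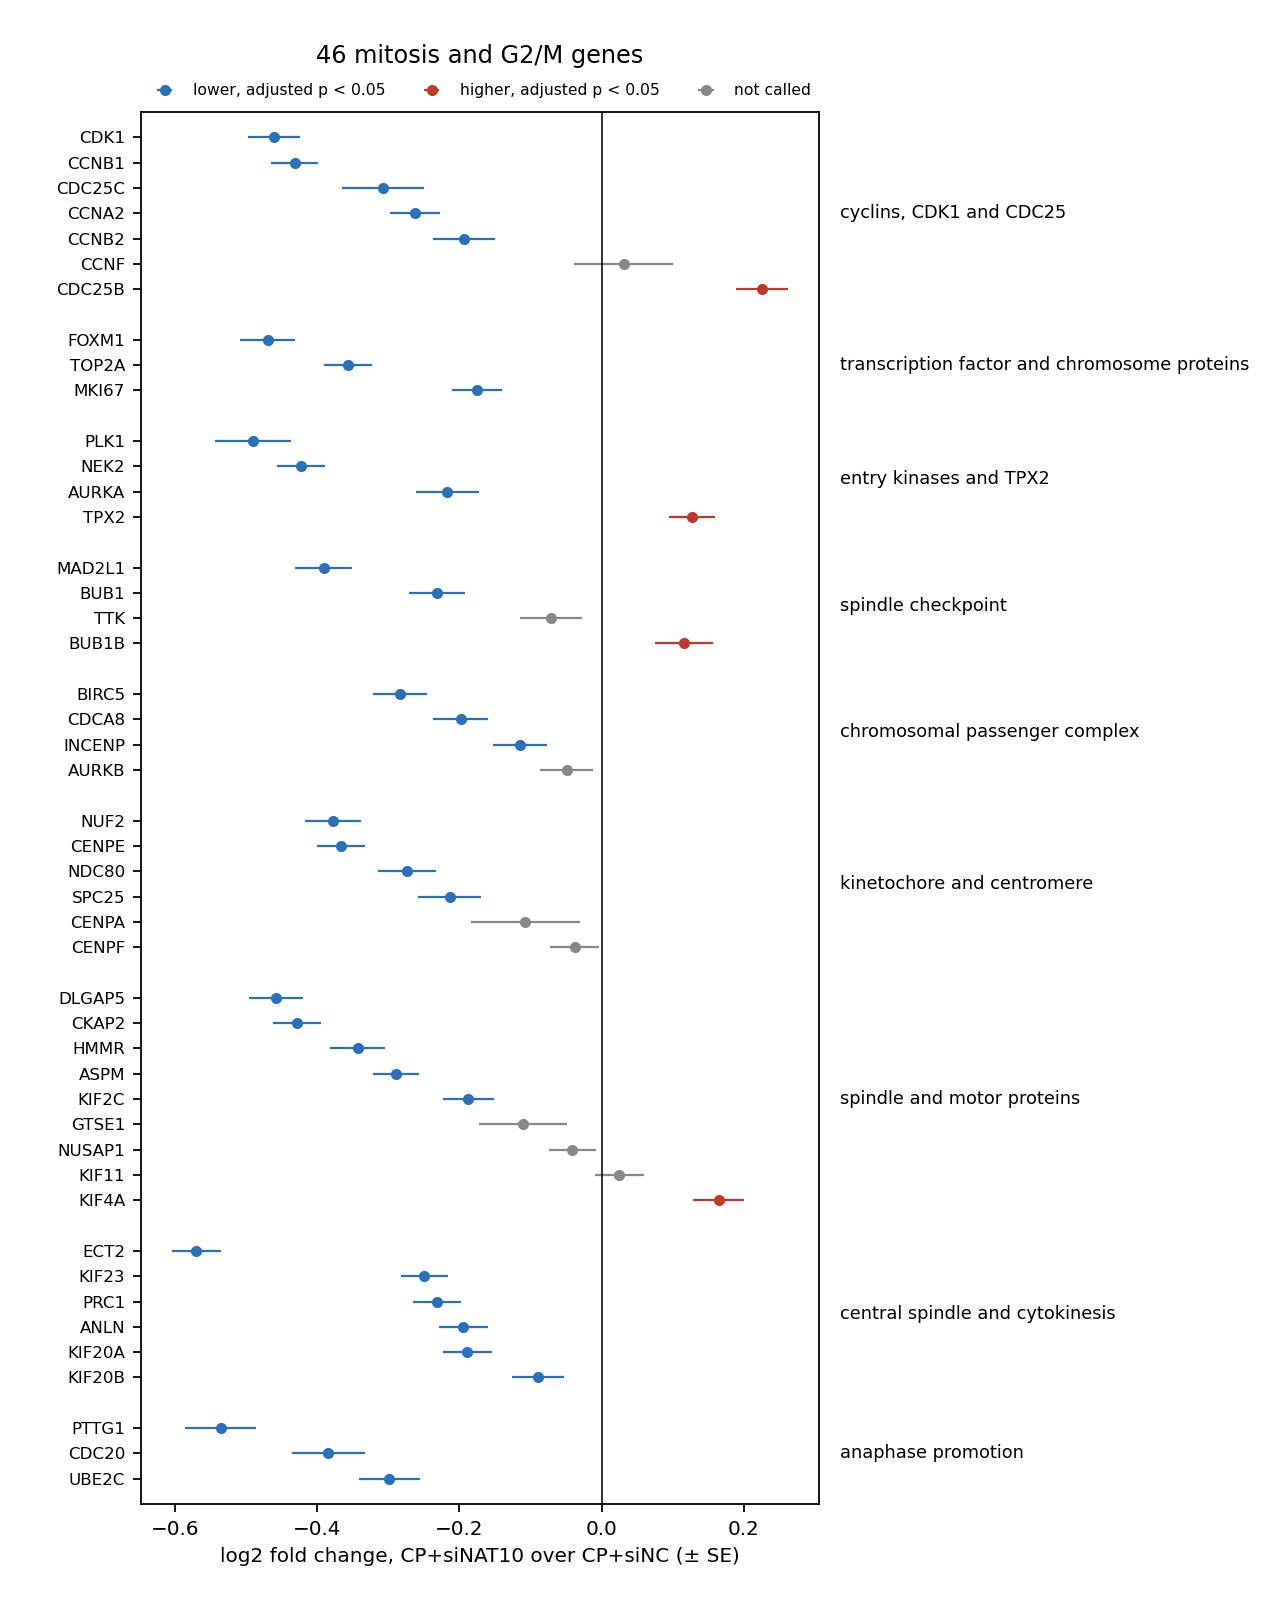
Log2 fold change of each of the 46 genes, CP+siNAT10 over CP+siNC (horizontal axis, n = 3 per group), with bars of 1 SE, grouped by role. Points left of 0 are lower in CP+siNAT10, and the 34 called lower (blue), 4 called higher (red) and 8 not called (grey) were called at an edgeR adjusted p of 0.05.

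Taken as a sum, the 46 genes made up 11290 CPM in CP+siNC replicate 1, 10914 in replicate 2 and 10843 in replicate 3. In CP+siNAT10 the sums were 9572, 9614 and 9712 CPM. The groups did not overlap, and the CP+siNAT10 mean of 9633 ± 72.1 CPM (SD, n = 3) was 87.4% of the CP+siNC mean of 11016 ± 240.1 CPM (SD, n = 3). Much of the sum came from MKI67, CENPF and TOP2A, and without them the CP+siNAT10 mean was 85.5% of the control mean. Among the CP+siNC libraries, replicate 1 was the highest of all 6 for 25 genes, replicate 2 for 11 and replicate 3 for 5. Within a group, a gene's coefficient of variation over the 3 libraries had a median of 2.60% and a highest value of 9.50%.

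**Figure D2:**
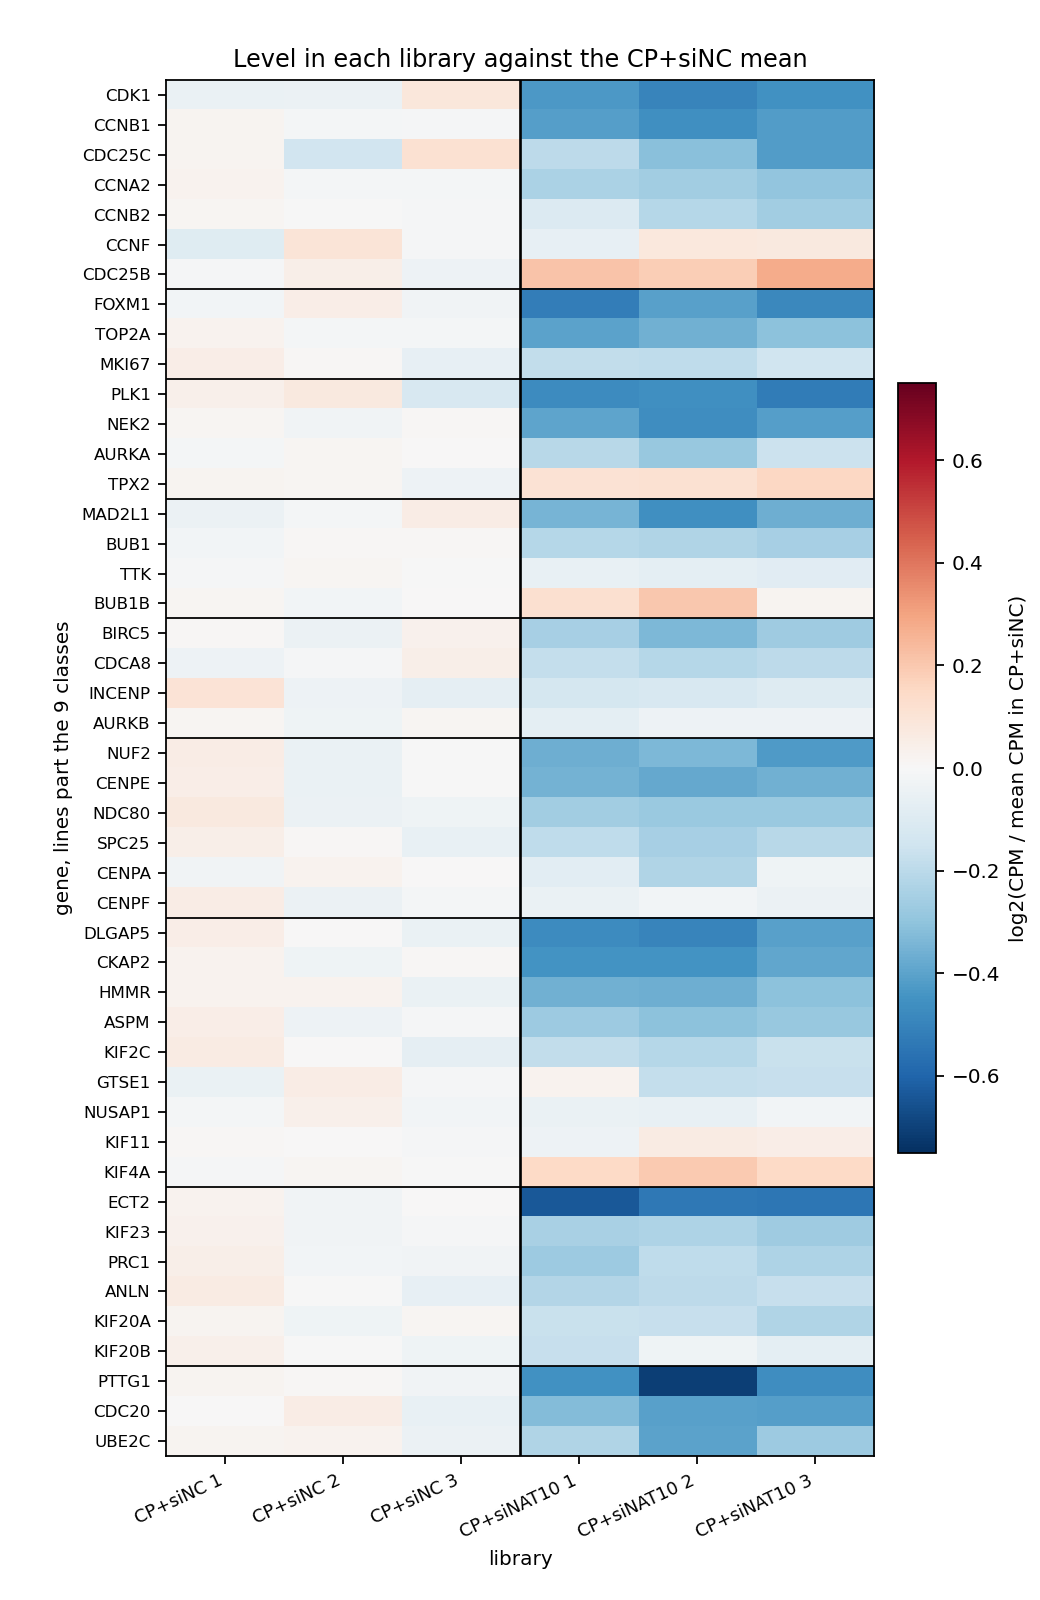
Level of each of the 46 genes in each library, as log2 of its CPM over the CP+siNC mean, with blue below and red above that mean. The CP+siNAT10 columns are blue for most genes, and lines part the 9 classes of genes.

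Per length of gene, the order of levels in CP+siNC ran from MKI67, the proliferation antigen that coats mitotic chromosomes, at 165 RPKM (CPM per kilobase of gene length), through CENPF at 146 RPKM and TOP2A at 144 RPKM, to CENPA at 6.69, GTSE1 at 5.89 and CCNF at 2.63 RPKM. Falls were found at every level. Of the 15 genes with the lowest RPKM 9 were lower and 2 higher, with a median log2 fold change of -0.22. Of the 15 in the middle 12 were lower and 1 higher, with a median of -0.28. Of the 16 with the highest RPKM 13 were lower and 1 higher, with a median of -0.21. Over all tested genes, of any level, 22.3% were lower and 21.8% higher. The 3 lowest, CENPA, GTSE1 and CCNF, were not called, and their standard errors of 0.0766, 0.0615 and 0.0691 were the widest of the 46, where the median over the 46 was 0.0377.

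**Figure D3:**
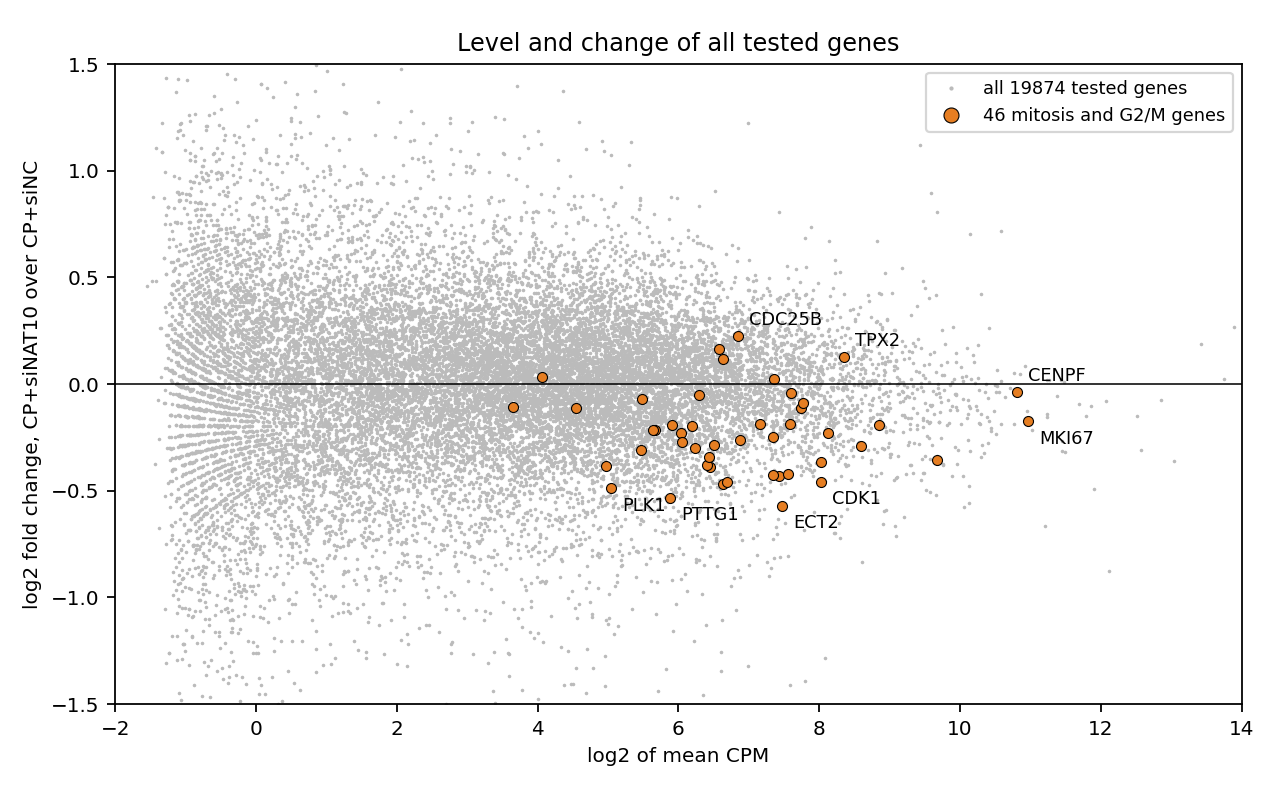
Log2 fold change (vertical axis) against log2 of the mean CPM (horizontal axis) for all 19874 tested genes (grey), with the 46 mitosis and G2/M genes in orange; 73 genes lie beyond the axes. The orange points lie mostly below 0 at middle to high levels, from -0.57 for ECT2 to 0.23 for CDC25B.

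Promoters are shown here for genes on both sides of 0, because many of the 46 genes hold letters there that their selection did not use. The sequences are those of RefSeq (GRCh38.p14), which cover 250 bases before to 50 after each start, and 40 of the 46 genes matched, with 50 promoters between them. FOXM1, AURKA, TPX2, TTK, BIRC5 and UBE2C were not matched. The motifs searched on both strands were CCAAT, the box bound by NF-Y, and TTTGAA and TTCGAA, called here the CHR letters. Other forms of the CHR were not searched for, so a gene without these letters may still hold a CHR. TTTGAA reads TTCAAA on the other strand, CCAAT reads ATTGG, and TTCGAA reads the same on both. TTTGAA can overlap ATTGG by its last letter, and CCAAT can overlap ATTGG. The stretches below run 5′ to 3′ on the strand of the gene, from 120 bases before the first start listed for it, with 10 bases from the start onward, and capitals mark the motifs on either strand. They lie at chr3:172750606-172750735 (ECT2), chr5:160421735-160421864 (PTTG1), chr16:23678769-23678898 (PLK1), chr5:69167030-69167159 (CCNB1), chr15:59105026-59105155 (CCNB2), chrX:70289984-70290113 (KIF4A) and chr15:40160949-40161078 (BUB1B), all on the plus strand. The first 5 genes fell and the last pair rose.
ECT2: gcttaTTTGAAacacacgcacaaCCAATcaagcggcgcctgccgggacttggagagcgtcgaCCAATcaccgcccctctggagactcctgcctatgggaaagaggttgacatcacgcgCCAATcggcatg
PTTG1: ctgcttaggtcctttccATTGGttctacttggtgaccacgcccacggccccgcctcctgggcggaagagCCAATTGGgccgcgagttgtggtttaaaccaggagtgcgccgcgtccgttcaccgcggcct
PLK1: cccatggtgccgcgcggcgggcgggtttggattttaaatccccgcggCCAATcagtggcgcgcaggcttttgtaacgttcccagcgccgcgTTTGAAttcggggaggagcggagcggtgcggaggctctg
CCNB1: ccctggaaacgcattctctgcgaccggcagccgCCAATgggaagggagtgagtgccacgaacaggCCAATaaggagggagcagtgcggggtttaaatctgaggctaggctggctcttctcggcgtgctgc
CCNB2: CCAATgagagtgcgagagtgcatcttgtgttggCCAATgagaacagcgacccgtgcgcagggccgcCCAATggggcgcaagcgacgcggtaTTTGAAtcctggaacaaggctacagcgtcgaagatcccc
KIF4A: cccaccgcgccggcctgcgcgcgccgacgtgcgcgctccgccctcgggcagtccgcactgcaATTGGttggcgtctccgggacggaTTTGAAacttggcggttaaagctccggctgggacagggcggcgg
BUB1B: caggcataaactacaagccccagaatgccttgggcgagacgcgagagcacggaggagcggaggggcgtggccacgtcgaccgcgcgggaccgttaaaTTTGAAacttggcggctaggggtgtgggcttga

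In ECT2, CCAAT began 97, 58 and 2 bases before the start and TTTGAA 115 bases before it, and in PTTG1 CCAAT began 51 bases before the start and overlapped an ATTGG that began 48 bases before it. In PLK1 the CCAAT letters began 73 bases and the TTTGAA letters 29 bases before the start. CCNB2 had TTTGAA at the same distance of 29 bases, with CCAAT 54 bases before the start and further copies upstream. CCNB1 held CCAAT 55 and 87 bases before the start and neither TTTGAA nor TTCGAA in the window. KIF4A, which rose, had the motifs in the same order as PLK1, with ATTGG 58 bases and TTTGAA 34 bases before the start. BUB1B, which also rose, had TTTGAA 23 bases before the start and no CCAAT. The rise of BUB1B was called in 9 of the 12 alternative fits given below.

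Over the matched genes, 29 of 40 held TTTGAA in at least 1 promoter, 4 of 40 TTCGAA and 33 of 40 CCAAT. Counted by promoter, these were 64.0%, 8.0% and 76.0% of the 50, where 15.2%, 1.45% and 34.6% of all 35116 promoters in the table held them. TTTGAA began in the 50 bases before the start 40.0 times per 100 promoters of these genes and 2.62 times per 100 of all promoters. For CCAAT the densest stretch was from 100 to 51 bases before the start, with 80.0 matches per 100 promoters of these genes and 14.4 per 100 of all. A match is a stretch of letters and was not tested for binding.

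Genes both with and without these letters fell. A CHR form here means TTTGAA or TTCGAA only, and a gene counted as without one may hold a form not searched for. Among the 27 genes with both a CHR form and CCAAT, 19 were lower, 2 were higher and 6 were not called, with a median log2 fold change of -0.21. Of the 4 with a CHR form and no CCAAT, ANLN, BUB1B, NDC80 and NUF2, 3 were lower and 1 was higher, with a median of -0.23. The 6 with CCAAT and neither of these CHR forms, AURKB, CCNA2, CCNB1, KIF20A, NEK2 and PTTG1, had a median of -0.34 with 5 lower. The 3 with neither, CENPE, CKAP2 and KIF2C, were all lower, with a median of -0.37. Shares were also taken over the 11736 tested genes with a matched promoter and a symbol on 1 row of the table only. Letters were counted over all promoters of a gene. The 944 that held both had a median of 0.024, with 25.6% lower and 27.9% higher. The 842 with only a CHR form had a median of 0.013, with 25.2% lower and 25.8% higher. The 4042 with only CCAAT had a median of 0.018, with 25.8% lower and 27.2% higher. The 5908 that held neither had a median of 0.011, with 25.1% lower and 25.8% higher.

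The kinase that drives mitotic entry and its main cyclin were among the clearest falls. CDK1 (ENSG00000170312, chromosome 10, 60778331 to 60794828) was at 292, 293 and 319.7 CPM in CP+siNC and at 223, 214 and 219.6 CPM in CP+siNAT10. CCNB1 (ENSG00000134057, chromosome 5, 69167135 to 69177630), which encodes cyclin B1, was at 201, 196 and 197 CPM in CP+siNC and at 149, 144 and 148 CPM in CP+siNAT10. Both were lower in all 3 CP+siNAT10 libraries, with no overlap, at 72.7% of control for CDK1 (log2 fold change -0.46, SE 0.0364, edgeR adjusted p = 2.28e-11) and 74.2% for CCNB1 (-0.43, SE 0.0331, edgeR adjusted p = 1.30e-11). The other cyclins of this stage fell less, CCNA2 with a log2 fold change of -0.26 and CCNB2 with -0.19. CCNF, which encodes the F-box protein cyclin F, was not called, with overlapping groups and a value of 0.031.

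Of the 3 CDC25 phosphatases, which remove inhibitory phosphates from CDKs, CDC25B rose and CDC25C fell, and CDC25A, which is not among the 46 genes, rose by 0.28 on the log2 scale (SE 0.0480, edgeR adjusted p = 1.93e-05). CDC25B, which acts at the start of mitosis, was at 105, 109 and 103 CPM in CP+siNC and at 123, 120.1 and 128 CPM in CP+siNAT10. All 3 CP+siNAT10 libraries were above all CP+siNC libraries, a log2 fold change of 0.23 (SE 0.0371, edgeR adjusted p = 1.09e-05), the largest rise of the 46 genes. CDC25C, which amplifies the activation, fell by 0.31 on the log2 scale (SE 0.0574, edgeR adjusted p = 6.30e-05), also without overlap.

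FOXM1, the transcription factor of G2/M genes, and TOP2A, the topoisomerase that untangles sister chromatids, both fell. FOXM1 (ENSG00000111206, chromosome 12, 2857680 to 2876986) was at 113, 119 and 113 CPM in CP+siNC and at 80.2, 86.7 and 82.3 CPM in CP+siNAT10. TOP2A was at 932, 906 and 907 CPM in CP+siNC and at 692, 714 and 738 CPM in CP+siNAT10. The groups were apart for both, with log2 fold changes of -0.47 for FOXM1 (SE 0.0386, edgeR adjusted p = 4.97e-11) and -0.36 for TOP2A (SE 0.0335, edgeR adjusted p = 7.21e-10). MKI67, the most abundant of the 46 per length, fell by 0.17 on the log2 scale (SE 0.0348, edgeR adjusted p = 0.000135).

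Of the kinases that act with CDK1 at entry, PLK1 and NEK2, the latter a kinase of centrosome separation, fell most. PLK1 (ENSG00000166851, chromosome 16, 23677656 to 23690038) was at 39.6, 40.7 and 35.6 CPM in CP+siNC and at 27.8, 28.1 and 26.8 CPM in CP+siNAT10. NEK2 was at 218, 212 and 217 CPM in CP+siNC and at 164, 156 and 162 CPM in CP+siNAT10. Each was lower in every CP+siNAT10 library than in any CP+siNC library, by log2 fold changes of -0.49 for PLK1 (SE 0.0536, edgeR adjusted p = 1.31e-08) and -0.42 for NEK2 (SE 0.0334, edgeR adjusted p = 2.35e-11). AURKA, the spindle pole kinase, fell by 0.22, while TPX2, the protein that binds and activates it on the spindle, rose. TPX2 was at 315, 315 and 303 CPM in CP+siNC and at 336, 337 and 346 CPM in CP+siNAT10. Its groups did not overlap, and the log2 fold change was 0.13 (SE 0.0325, edgeR adjusted p = 0.00204).

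The spindle checkpoint, which delays anaphase until kinetochores are attached, was also divided. MAD2L1, whose product binds CDC20, was at 96.7, 98.6 and 104 CPM in CP+siNC and at 78.1, 72.5 and 77.3 CPM in CP+siNAT10. BUB1, a kinetochore kinase, was at 69.9, 71.4 and 71.3 CPM in CP+siNC and at 61.0, 60.5 and 59.6 CPM in CP+siNAT10. These genes were lower in all 3 CP+siNAT10 libraries, with log2 fold changes of -0.39 for MAD2L1 (SE 0.0398, edgeR adjusted p = 3.49e-09) and -0.23 for BUB1 (SE 0.0391, edgeR adjusted p = 1.63e-05). BUB1B, which encodes the checkpoint protein BUBR1, was at 96.8, 94.2 and 96.0 CPM in CP+siNC and at 104, 110.2 and 97.2 CPM in CP+siNAT10. Its highest control and lowest CP+siNAT10 libraries nearly met, and the rise of 0.12 (SE 0.0409, edgeR adjusted p = 0.0222) was lost without CP+siNAT10 replicate 2 (0.072, adjusted p = 0.197), without CP+siNC replicate 2 (0.099, adjusted p = 0.0990) and with DESeq2 (0.11, adjusted p = 0.0736). TTK, the kinase that starts the checkpoint, was not called at -0.071 (SE 0.0436).

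Of the 4 genes of the chromosomal passenger complex, which corrects faulty attachments, 3 were called lower, beside 22.3% of all tested genes. BIRC5, or survivin, was at 101, 97.3 and 102 CPM in CP+siNC and at 84.2, 79.3 and 83.1 CPM in CP+siNAT10. CDCA8, or borealin, was at 76.3, 77.9 and 80.8 CPM in CP+siNC and at 69.1, 67.4 and 68.2 CPM in CP+siNAT10. Neither gene's groups overlapped, and the log2 fold changes were -0.28 for BIRC5 (SE 0.0380, edgeR adjusted p = 4.52e-07) and -0.20 for CDCA8 (SE 0.0389, edgeR adjusted p = 0.000116). INCENP, the scaffold, fell by 0.11 (edgeR adjusted p = 0.0149), a call lost when scaled by library size only (-0.076, adjusted p = 0.0864), without CP+siNC replicate 1 (-0.063, adjusted p = 0.165) and without CP+siNAT10 replicate 2 (-0.11, adjusted p = 0.0586). AURKB, the kinase of the complex, was not called at -0.049 (SE 0.0376).

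At the kinetochore, the motor CENPE and 3 of the 4 genes of the NDC80 complex, which holds microtubule ends, were lower. The share over all tested genes was 22.3%. CENPE was at 306, 285 and 294 CPM in CP+siNC and at 231, 226 and 229 CPM in CP+siNAT10. NUF2 was at 99.7, 92.4 and 95.5 CPM in CP+siNC and at 74.3, 75.8 and 71.3 CPM in CP+siNAT10. With no overlap in either gene, the log2 fold changes were -0.37 for CENPE (SE 0.0335, edgeR adjusted p = 4.32e-10) and -0.38 for NUF2 (SE 0.0396, edgeR adjusted p = 5.83e-09). Of the partners of NUF2 in the complex, NDC80 fell by 0.27 and SPC25 by 0.21, while SPC24, which is outside the 46 and was named after its values were seen, was not called at -0.059 (edgeR adjusted p = 0.21). CENPA, the centromeric histone, was not called at -0.11 (SE 0.0766), and CENPF, a large protein of the outer kinetochore, was not called at -0.038 (SE 0.0344), a value that turned to 0.00052 when scaled by library size only.

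Among 9 genes of spindle proteins and motors, 5 were lower, 1 was higher and 3 were not called. Over all tested genes, 22.3% were lower and 21.8% higher. DLGAP5, a spindle microtubule protein also named HURP, was at 123, 119.5 and 115 CPM in CP+siNC and at 86.0, 84.7 and 89.9 CPM in CP+siNAT10. CKAP2, another microtubule protein, was at 190.3, 183 and 188 CPM in CP+siNC and at 137, 137 and 142 CPM in CP+siNAT10. Both were clearly apart between groups, with log2 fold changes of -0.46 for DLGAP5 (SE 0.0379, edgeR adjusted p = 5.61e-11) and -0.43 for CKAP2 (SE 0.0339, edgeR adjusted p = 2.39e-11). HMMR, ASPM and the microtubule depolymerase KIF2C fell by 0.34, 0.29 and 0.19. KIF4A, a chromosome-bound kinesin, was at 89.1, 90.8 and 89.4 CPM in CP+siNC and at 99.4, 103 and 99.5 CPM in CP+siNAT10. It was higher in all 3 CP+siNAT10 libraries, by a log2 fold change of 0.16 (SE 0.0362, edgeR adjusted p = 0.000432). KIF11, the kinesin that pushes the spindle poles apart, NUSAP1 and GTSE1 were not called, at 0.025, -0.041 and -0.11, and GTSE1 was called lower only without CP+siNAT10 replicate 1 (-0.18, adjusted p = 0.0252).

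All 6 genes of the central spindle and cytokinesis were called lower, beside 22.3% of all tested genes. ECT2 (ENSG00000114346, chromosome 3, 172750682 to 172821473), the exchange factor that activates RhoA at the division plane, was at 215, 208 and 212 CPM in CP+siNC and at 136, 146 and 145 CPM in CP+siNAT10. KIF23, a kinesin of the centralspindlin complex to which ECT2 binds, was at 181, 173 and 175 CPM in CP+siNC and at 149, 150.02 and 147 CPM in CP+siNAT10. No CP+siNAT10 library reached a CP+siNC library for either, and ECT2 at 67.3% of control (log2 fold change -0.57, SE 0.0349, edgeR adjusted p = 1.14e-13) was the largest fall of the 46, beside -0.25 for KIF23 (SE 0.0333, edgeR adjusted p = 4.47e-07). PRC1, ANLN and KIF20A, which bundle microtubules, organise the contractile ring and carry proteins to the midzone, fell by 0.23, 0.19 and 0.19. KIF20B was at the limit, at -0.089 (SE 0.0364, edgeR adjusted p = 0.0475) with overlapping groups. Its call was lost under 8 of the 12 alternatives, including leaving out either of CP+siNC replicates 1 (-0.073) and 2 (-0.097) or CP+siNAT10 replicates 1 (-0.049) and 3 (-0.098).

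The 3 genes of anaphase promotion were all called lower, beside 22.3% of all tested genes. PTTG1 (ENSG00000164611, chromosome 5, 160421855 to 160428704), which encodes securin, the inhibitor of separase, was at 70.7, 70.2 and 68.6 CPM in CP+siNC and at 51.1, 42.9 and 50.5 CPM in CP+siNAT10. CDC20, the activator of the APC/C, was at 35.5, 36.8 and 34.1 CPM in CP+siNC and at 28.3, 26.7 and 26.6 CPM in CP+siNAT10. Replicate 2 of CP+siNAT10 was the lowest for PTTG1, and neither gene's groups overlapped. The log2 fold changes were -0.54 for PTTG1 (SE 0.05002, edgeR adjusted p = 6.47e-10) and -0.38 for CDC20 (SE 0.0513, edgeR adjusted p = 4.21e-07). UBE2C, the ubiquitin-conjugating enzyme of the APC/C, fell by 0.30 (SE 0.0431, edgeR adjusted p = 1.50e-06).

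Some of these genes share their place with another annotated gene, and whether counting used strand is not given in the sources used here. PRC1 overlaps ENSG00000284946 on the same strand, whose mean count was 97.4% of that of PRC1, and NUSAP1 overlaps ENSG00000285920 on the same strand at 107% of its count, so that these values may rest on shared reads and are uncertain. CENPA overlaps SLC35F6 on the same strand, at 66.4% of its count, and is uncertain in the same way. On the opposite strand, FAM53C had 253% of the mean count of CDC25C and EXOSC9 92.7% of that of CCNA2. PRC1-AS1 had 44.3% of the count of PRC1, PDZD11 42.8% of that of KIF4A, and RHNO1 and ITFG2 42.0% and 40.8% of that of FOXM1. Without strand, reads of such partners cannot be told apart where their exons overlap, so the values of CDC25C, CCNA2, KIF4A and FOXM1 carry that uncertainty too. Copies held few counts, with KIF4B at 0.59% of the count of KIF4A and the read-through gene BUB1B-PAK6 at 1.47% of that of BUB1B. AURKAP1 had 4.33% of the count of AURKA, CDC20P1 2.87% of that of CDC20 and UBE2CP5 2.53% of that of UBE2C.

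Other genes of the same pathway were lower and higher in similar numbers. Over 6 further lists, 100 genes in all, 26 were lower and 30 were higher, beside 22.3% and 21.8% of all tested genes. Their median log2 fold change was -0.0041. The 6 lists are those of this paragraph and the DREAM and MuvB genes described below, and their shares differed. Of 17 genes of the APC/C core and its inhibitors, 3 were lower and 7 higher, with ANAPC13 at -0.41, ANAPC1 at 0.35 and ANAPC4 at 0.28. Of 16 genes of cohesin and sister separation, 4 were lower and 5 higher, with the cohesin subunit SMC1A at -0.50, the cohesin release factor WAPL at -0.26 and the cohesin acetyltransferase ESCO1 at 0.40. Condensin, which compacts chromosomes, had 4 of 8 lower and 2 higher, with SMC2 at -0.37, NCAPH at -0.33 and SMC4 at -0.20. Among 32 other kinetochore and checkpoint genes, 11 were lower and 7 higher, with CENPQ at -0.83, MIS12 at -0.41 and ZW10 at 0.68. Other regulators of entry, among them brakes and the Greatwall pathway, had 1 of 11 lower and 3 higher, with the DNA damage kinases CHEK1 at -0.30 and ATM at 0.48. The phosphatase CDC25A, at 0.28, is also on this list and promotes entry. All of these named values had an edgeR adjusted p under 0.05, and whether the lists differ from the 46 genes was not tested.

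**Figure D4:**
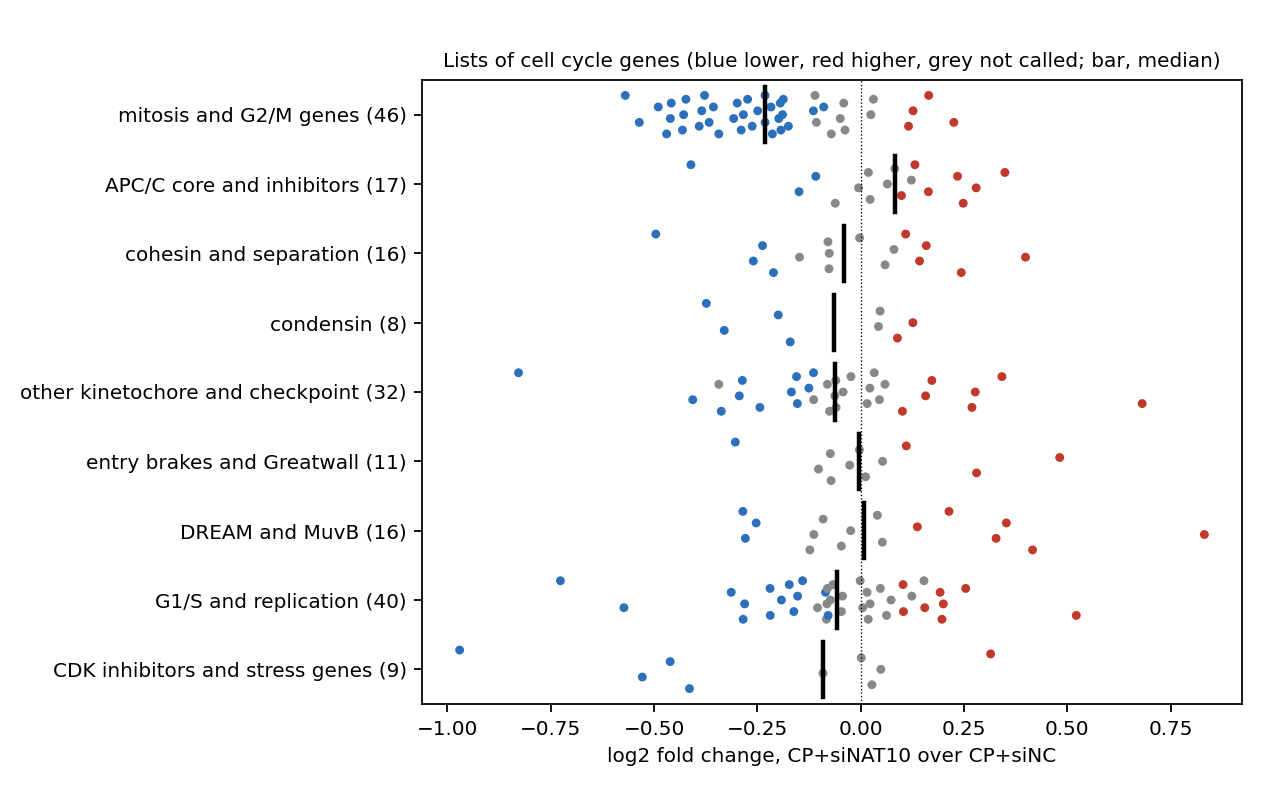
Log2 fold change, CP+siNAT10 over CP+siNC (horizontal axis), of each tested gene in the mitosis and G2/M list and in 8 further lists, with list sizes in brackets and the median as a bar. The median is -0.23 for the 46 genes and lies between -0.091 and 0.082 for each further list.

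DREAM and MuvB genes encode the complexes that repress or activate mitotic genes. Of 16, 6 were called higher and 3 lower, beside 21.8% and 22.3% of all tested genes, while 8 had values below 0 and the median was 0.0081. RBL1, which encodes the RB-related protein p107, rose by 0.83 on the log2 scale (SE 0.0573, edgeR adjusted p = 1.40e-12), E2F4 by 0.42 (SE 0.0479, edgeR adjusted p = 3.37e-08) and MYBL2, the gene of B-MYB, by 0.35 (SE 0.0322, edgeR adjusted p = 4.29e-10). FOXM1 and MYBL2, both activators of these genes, thus moved in opposite directions. The groups did not overlap for any of the 3.

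Earlier in the cycle, 14 of 40 G1/S and replication genes were lower and 8 higher, beside 22.3% and 21.8% of all tested genes, with a median of -0.057. RRM2, the ribonucleotide reductase subunit, fell by 0.73, the licensing factor CDT1 fell by 0.57, and MCM5 of the replicative helicase rose by 0.52. Of 9 CDK inhibitors and stress genes, 4 were lower and 1 higher. CDKN2D, the gene of p19, fell by 0.97 and GADD45A, a stress gene that restrains CDK1, by 0.53. CDKN1A, the gene of p21, was at 71.6, 67.6 and 69.2 CPM in CP+siNC and at 49.97, 51.7 and 54.4 CPM in CP+siNAT10. It was lower in all 3 CP+siNAT10 libraries (log2 fold change -0.41, SE 0.0430, edgeR adjusted p = 4.79e-09), while CDKN2A was not called at 0.027 (SE 0.0396).

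For any 1 gene, an exact permutation test over these 6 libraries could not reach a p below 0.10, and the calls therefore depend on the edgeR fit, which draws on all tested genes to estimate the spread. Directions of the 34 falls and 4 rises were the same under all 12 alternatives.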

How the data were processed

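Messenger RNA of 3 CP+siNC and 3 CP+siNAT10 samples was sequenced from stranded libraries. The deposited values are raw counts per gene, made by the authors with featureCounts; the submitters' processing notes name Trimmomatic 0.36, STAR 2.5.3a, Subread 1.5.1, edgeR 3.12.1 and GRCh38. The deposited gene length, in bases, was used for RPKM. The library kit adds UMIs, random bases that let duplicate reads be recognised and corrected for, but whether the deposited counts were made after such a correction is not given in the sources used here.

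Counts were analysed with edgeR 4.0.16 in R 4.3.3: filterByExpr (minimum count 10), TMM scaling, glmQLFit and glmQLFTest without covariates, and Benjamini-Hochberg adjustment over 19874 genes. CPM used the TMM-scaled library size. Groups came from the labels and no sample was left out. The programs were tested on simulated data. Alternatives were RLE scaling, library size only, no filter, at least 50 counts in 3 libraries, DESeq2 1.42.0, a replicate block, leaving out each library, and a log2 limit of 0.5.

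The members and lists were chosen with earlier results of these data known. Values in every library were given for NAT10, for the 2 genes with the smallest p in each class and for those that rose. Up to 3 genes were named per further list, besides CDKN1A, CDKN2A and SPC24, while markers were named without this limit. A further item of the named genes is not reported here. Values of CDKN1A in every library and the promoters printed were chosen after values were seen.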

Additional observations from a re-analysis of the deposited data

How the results depend on the processing

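The counts of lower and higher genes, among the 46 and over all tested genes, stayed within 1.5 times under 12 alternatives, which leave out the limit on log2 fold change below, with 32 to 34 lower and 3 to 4 higher among the 46. Of the 34 called lower 32, and of the 4 called higher 3, kept their call under all 12 alternatives of scaling, filter, test, block and library. With a log2 fold change over 0.5 in size also required, 2 of the 46 were lower and 0 were higher, which follows from the added limit; without that limit edgeR called 34 and 4 and DESeq2 called 33 and 3. The median log2 fold change moved from -0.23 to -0.19 when scaled by library size only, and over all tested genes from 0.0070 to 0.044. Leaving out 1 library put the median of the 46 between -0.25 and -0.23. Values near 0 changed sign for CENPF with library size only (0.00052), CCNF without CP+siNC replicate 1 (-0.014) and CDKN2A without CP+siNC replicate 3 (-0.010), and the cause was not tested. With 1 library left out, CCNF reached 0.078 and CDKN2A 0.060 at most, and among other members not called CENPF was between -0.065 and -0.010, KIF11 between 0.0075 and 0.057 and CENPA between -0.15 and -0.053. PTPRC was between 0.46 and 1.21, and lost its call in 4 of these 6 fits. KRT8, at -0.0046 and not called, was at 0.033 with library size only, 0.0068 without a filter, and between -0.020 and 0.0040 with 1 library left out. The replicate block called 33 lower and 4 higher of the 46, and 4318 lower and 4208 higher over all tested genes. Deviations of libraries with the same number correlated at 0.0081, 0.064 and -0.205, and those with different numbers at -0.217 to 0.198. These values gave no sign that the numbers pair the samples, but with 3 libraries per group they cannot exclude it. KIF20B lost its call under the block (-0.090, adjusted p = 0.0643). CENPA, with 241 to 323 counts per library, had the widest standard error of the 46 (0.077), and what depth adds to this was not tested. Of all tested genes 9.51% were lower and 10.1% higher without a filter, where 43353 were tested, and 28.0% and 27.3% with at least 50 counts in 3 libraries, where 14802 were tested.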
